A study of Mus musculus with 14 samples.

Results

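Postsynaptic scaffold genes encode the proteins that hold glutamate receptors and their signalling partners in place at excitatory synapses. The 9 genes described here were taken by symbol: Dlg1, Dlg2, Dlg3 and Dlg4, Dlgap1, Shank1, Shank2 and Shank3, and Homer1. They are 9 of 51626 genes obtained by adding up the transcripts of each GENCODE symbol in 3 deposited tables. Values are FPKM, in which fragments are divided by transcript length and library size, so levels of different genes are per unit of length. All 9 genes passed the filter for testing, a mean of at least 1 FPKM, in every comparison.

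The study sequenced RNA from mouse cortex at postnatal day 0.5 in 14 libraries. Frontal (rostral) cortex of 4 wild type C57BL6/J mice was compared with that of 4 mice with both alleles of Auts2 floxed at exon 15 and Emx1-cre, called cKO. Auts2 encodes a nuclear and cytoplasmic protein linked to autism. Emx1-cre acts in the progenitors of the dorsal forebrain, so interneurons, microglia and vessel cells of the same tissue keep an intact gene. Neither group is labelled as carrying Cre or the floxed allele alone, and such controls were not analysed here. The other 6 libraries came from wild type C57BL6/J cortex, 2 pooled neonates per replicate, split into RNA immunoprecipitated with an antibody to the C terminus of AUTS2 (RIP), RNA pulled down with IgG, and 10% input, as trios A and B. The frontal cortex libraries were made from polyA RNA and the pull-down libraries from total RNA with a stranded kit, so levels in the 2 sets are described side by side and not tested against each other. The labels call the B library of each pull-down group a biological replicate, and only number the frontal cortex libraries.

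Membrane-associated guanylate kinases of the Dlg family sit directly under the membrane and bind the tails of NMDA receptors and of proteins that hold AMPA receptors. Dlgap proteins link them to Shank proteins, the deeper layer of the scaffold, and Shank proteins bind Homer, which reaches metabotropic glutamate receptors and the calcium stores. In newborn cortex most excitatory synapses have yet to form.

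The label of the knockout fitted its target: Auts2 stood at 32.5 ± 2.78 FPKM in cKO and 74.0 ± 18.6 FPKM in wild type (SD, n = 4). The log2 fold change was -1.13 (adjusted p = 0.0237 with limma), and every cKO library was below every wild type library. Emx1 did not pass (log2 fold change -0.33, adjusted p = 0.628). Markers of cortical excitatory neurons summed to 653 to 747 FPKM in cKO and 696 to 737 FPKM in wild type, and none of these 7 markers was at 0. Several libraries stood apart across all genes. Libraries wild type 1 and 2 correlated at r = 0.993 with each other and at 0.984 to 0.987 with the other wild type and with cKO 2 to 4, and cKO 1 correlated at 0.980 to 0.986 with the other 7. Library cKO 1 held interneuron markers at 316 FPKM in sum, against 149 to 216 FPKM in the others, and proliferation markers at 47.4 FPKM, against 30.1 to 38.9 FPKM. No table used here holds read counts, so sequencing depth is unknown.

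In frontal cortex the scaffold genes were expressed unequally, and each layer of the scaffold held high and low members. Dlg4, which encodes PSD-95, the most abundant scaffold of mature excitatory synapses, was the highest in wild type at 108 ± 3.98 FPKM (SD, n = 4), above 96.3% of the genes over 1 FPKM. Dlg2, which encodes the related PSD-93, followed at 92.1 ± 7.53 FPKM, and the wild type values of these 2 genes did not overlap. Shank1 at 47.2 ± 3.13 FPKM and Dlgap1 at 44.9 ± 2.80 FPKM came next, with overlapping values. Homer1 stood at 30.1 ± 1.61 FPKM. Dlg3, the gene of SAP102, a scaffold of young synapses, stood at 27.4 ± 0.97 FPKM and overlapped Shank2 at 25.4 ± 1.49 FPKM. Shank3, whose loss causes Phelan-McDermid syndrome, and Dlg1, which encodes SAP97, were the lowest at 13.3 ± 2.31 and 11.7 ± 0.93 FPKM and overlapped each other. The cKO libraries gave the same order of means, from Dlg4 at 109 ± 6.79 FPKM to Dlg1 at 11.5 ± 1.37 FPKM.

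**Figure D1:**
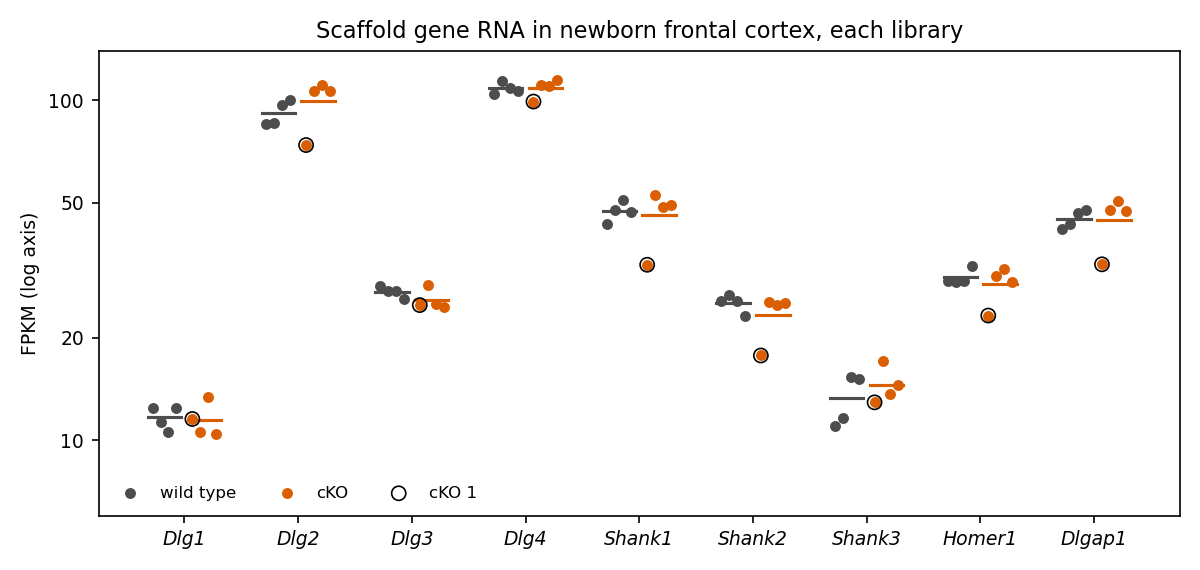
Level of each scaffold gene in frontal cortex, in FPKM on a log axis, with 1 point per library, a bar at each group's mean and open rings around library cKO 1. Wild type and cKO points overlap for each of the 9 genes, and cKO 1 is the lowest of the 8 libraries for 6 of them.

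Loss of Auts2 in the Emx1 lineage was compared with wild type to see whether the scaffold RNAs changed at birth. None of the 9 genes passed the test. With limma 0 of 9 were called at an adjusted p of 0.05, and 0 of 9 had an unadjusted p under 0.05, where 0.0235% and 7.91% of all 12786 genes tested did. In bulk tissue, fewer cells of a type and less RNA per cell cannot be told apart. The median log2 fold change of the 9 genes was -0.03, beside 0.00 (0.0013) over all genes tested, and 3 of 9 were positive.

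Among the Dlg genes, Dlg4 stood at 105, 114, 109 and 106 FPKM in wild type 1 to 4 and at 99.2, 111, 110 and 115 FPKM in cKO 1 to 4. Its log2 fold change was 0.00 (0.0047), with a 95% interval of -0.13 to 0.14. The groups overlapped, and this was the narrowest interval of the 9. Dlg2 stood at 85.3, 86.1, 96.8 and 100.2 FPKM in the wild type and 73.9, 106, 111 and 107 FPKM in the cKO libraries, a log2 change of 0.10 (SE 0.12, adjusted p = 0.790). In cKO 3 of the 4 libraries were above every wild type library, and cKO 1 was below all of them; without cKO 1 the log2 fold change was 0.23 (adjusted p = 0.573). Dlg3 stood at 28.4, 27.5, 27.5 and 26.0 FPKM in the wild type and 25.0, 28.7, 25.2 and 24.6 FPKM in the cKO libraries, a log2 change of -0.08 (SE 0.07, adjusted p = 0.721). Here 3 of the 4 cKO libraries were below every wild type library, and cKO 2 was above all of them. Dlg1 gave -0.03 (SE 0.10), with 10.6 to 12.5 FPKM in wild type and 10.4 to 13.4 FPKM in cKO.

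Of the deeper layer, Shank2 stood at 25.6, 26.8, 25.7 and 23.3 FPKM in the wild type and 17.8, 25.5, 25.0 and 25.4 FPKM in the cKO libraries, a log2 change of -0.12 (SE 0.11, adjusted p = 0.720). The cKO value depended on library 1: without it the log2 fold change was 0.00 (-0.0009). Shank3 stood at 11.0, 11.6, 15.4 and 15.2 FPKM in the wild type and 12.9, 17.1, 13.7 and 14.5 FPKM in the cKO libraries, a log2 change of 0.13 (SE 0.12, adjusted p = 0.733). Wild type 1 and 2, the pair that stood apart across all genes, held the 2 lowest Shank3 values of the 8, and without that pair the log2 fold change was -0.07. Shank1 and Dlgap1 gave -0.06 (SE 0.12) and -0.03 (SE 0.11), and both were lowest in cKO 1, at 32.8 and 32.9 FPKM, against 43.2 and 41.8 FPKM or more elsewhere. Homer1 ranged from 29.3 to 32.5 FPKM in wild type and stood at 23.3, 30.5, 32.0 and 29.3 FPKM in cKO, a log2 fold change of -0.07 (SE 0.09). The 95% intervals of the 9 genes reached from -0.36 at the lowest, for Shank2, to 0.39 at the highest, for Shank3. Library cKO 1 was the lowest of the 4 cKO libraries for 7 of the 9 genes, beside its high interneuron and proliferation markers; their part in these values was not tested. Without it the log2 fold changes of Shank1, Homer1 and Dlgap1 were 0.09, 0.02 and 0.11, none of them called.

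Other genes of the postsynaptic density, a list of 39 that includes the kinase subunits Camk2a and Camk2b, the sorting adaptors Grip1 and Pick1 and further Dlgap and Homer genes, likewise had 0 of 39 called in cKO with limma. Of these, 6 of 39 had an unadjusted p under 0.05, where 7.91% of all genes tested did. The median log2 fold change of the list was 0.00 (0.0047), beside 0.00 (0.0013) over all genes tested.

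The pull-down was compared with IgG, the control for RNA that sticks to antibody and beads, and with input, the RNA before the pull-down. The 2 comparisons share the same RIP libraries, in tables scaled separately, so they are not independent. Against IgG, limma called 4 of the 9 genes, 2 higher in RIP (Shank2 and Shank3) and 2 lower (Dlg2 and Homer1). Of all 14570 genes tested 23.4% were called, 13.7% higher and 9.69% lower. The groups did not overlap for any of the 9 genes, with 5 higher and 4 lower, where with 2 libraries a group 64.4% of all genes did not overlap, 34.3% higher and 30.2% lower. The median log2 fold change was 0.05, beside 0.02 over all genes. Against input 7 of 9 were called, 5 higher (Dlg3, Dlg4, Shank1, Shank2 and Shank3) and 2 lower (Dlg2 and Homer1), where 35.9% of all 14458 genes were called, 19.3% higher and 16.6% lower. The median log2 fold change was 0.39, beside -0.02 over all genes. The split against IgG depended on the scaling. With median-ratio rescaling Shank3 was called higher and Dlg2, Dlg4 and Homer1 lower, and with quantile normalization 0 were called higher and 4 lower (Dlg2, Dlg4, Shank1 and Homer1). Over all genes the split also moved towards lower calls with median-ratio rescaling, as given in the last section. The share of all genes called with quantile normalization is not given here. These shifts are thus not read as a trait of the scaffold genes. Leaving out 1 library leaves 1 in its group, which is then assumed to vary like the other group; in such fits 0 or 1 of the 9 genes were called against IgG and 1 to 3 against input, while the calls over all genes fell from 3406 to between 0 and 1806 and from 5188 to between 1395 and 3471.

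**Figure D2:**
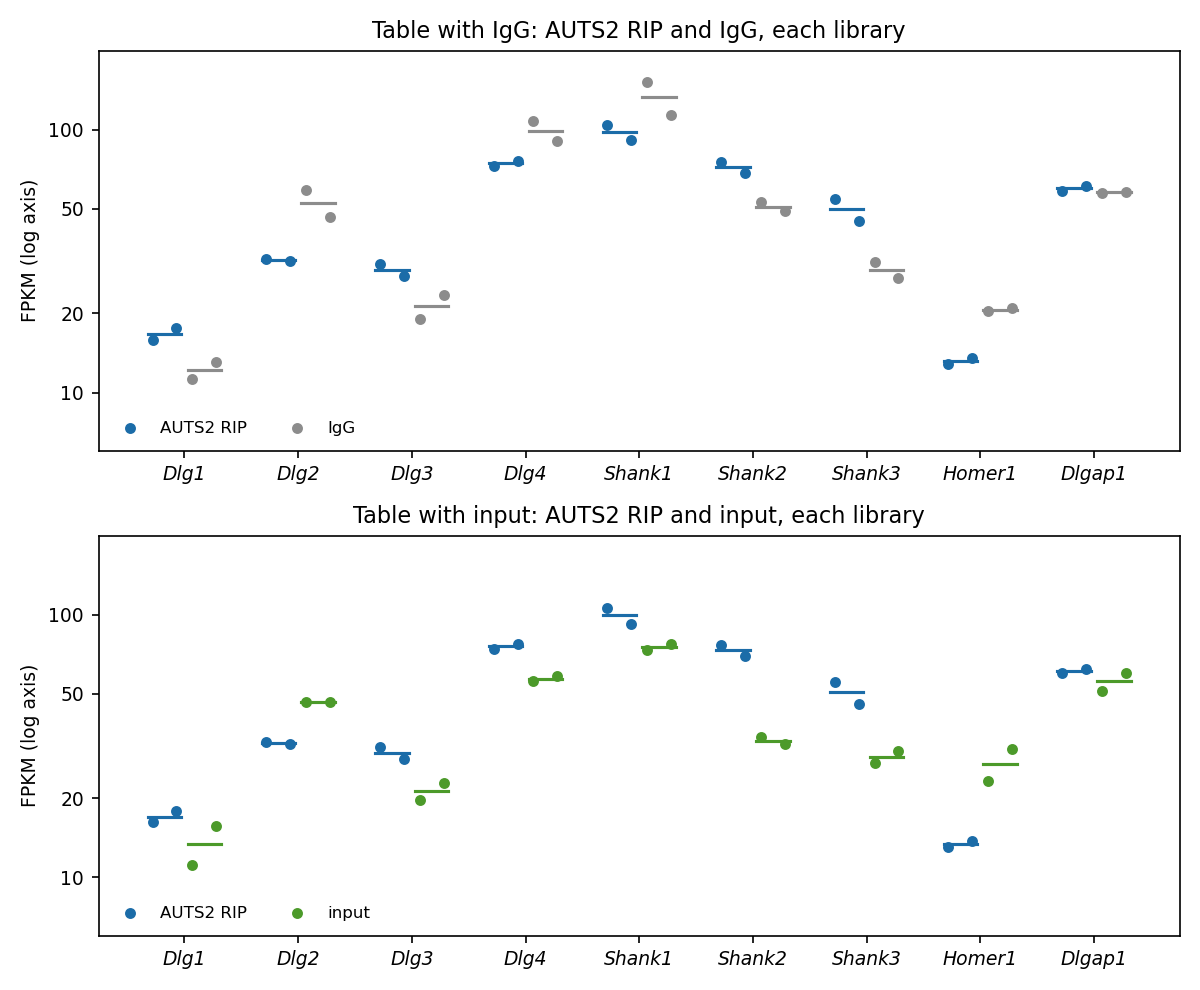
Level of each scaffold gene in FPKM on a log axis, with 1 point per library and a bar at each group's mean, for RIP and IgG (upper panel) and for RIP and input (lower panel). RIP points lie below the control in both panels for Dlg2 and Homer1 and above it in both for Dlg1, Dlg3, Shank2 and Shank3. For Dlg4 and Shank1 they lie below IgG and above input.

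The pull-down libraries held the scaffold RNAs in another order than frontal cortex. In RIP, Shank1 was the highest at 97.9 ± 9.50 FPKM (SD, n = 2), followed by Dlg4 at 74.5 ± 2.27 FPKM and Shank2 at 72.1 ± 5.03 FPKM, whose values overlapped. Dlgap1 at 60.0 ± 1.83 FPKM, Shank3 at 49.8 ± 6.84 FPKM, Dlg2 at 31.9 ± 0.45 FPKM, Dlg3 at 29.3 ± 2.29 FPKM and Dlg1 at 16.7 ± 1.176 FPKM followed without overlap between neighbours. Homer1 was the lowest at 13.2 ± 0.55 FPKM. Shank1 and Dlg4 also led in IgG, at 133 ± 27.3 and 99.1 ± 12.2 FPKM, and in input, at 75.3 ± 2.65 and 57.0 ± 1.72 FPKM.

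The 3 Shank genes encode large proteins with ankyrin repeats, a PDZ domain and a SAM domain through which they form sheets. Shank2 stood at 75.6 and 68.5 FPKM in RIP A and B, at 52.9 and 49.1 FPKM in IgG, and, in the other table, at 77.0 and 69.6 FPKM in RIP and 34.2 and 32.1 FPKM in input. Both RIP libraries were above both controls. Its log2 fold change was 0.49 against IgG (SE 0.11, adjusted p = 0.0278) and 1.12 against input (SE 0.11, adjusted p = 0.00163), 2.17-fold on the FPKM + 1 scale. The call against input held when any 1 library was left out, with adjusted p from 0.0251 to 0.0353. Against IgG the log2 fold change was 0.42 to 0.56 in such fits, with 1 library in a group, and the adjusted p was 0.0732 to 0.194. With quantile normalization it was 0.18 (adjusted p = 0.286), and with median-ratio rescaling 0.39 (adjusted p = 0.0558).

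Shank3 stood at 54.6 and 45.0 FPKM in RIP, at 31.3 and 27.4 FPKM in IgG and at 27.3 and 30.3 FPKM in input. RIP was above both controls in both trios. Shank3 RNA thus differed by 0.74 on the log2 scale from IgG (SE 0.15, adjusted p = 0.0171) and by 0.79 from input (SE 0.14, adjusted p = 0.00897). With 1 library left out these differences were 0.60 to 0.88 and 0.65 to 0.93, with adjusted p of 0.0474 to 0.132 and 0.0410 to 0.0894. Quantile normalization gave 0.53 against IgG (adjusted p = 0.0517). Shank1 stood at 105 and 91.2 FPKM in RIP, at 152 and 114 FPKM in IgG and at 73.4 and 77.2 FPKM in input. It was the gene of the 3 that lay below IgG, with a log2 change of -0.43 (SE 0.16, adjusted p = 0.105), and it lay above input with 0.39 (SE 0.11, adjusted p = 0.0367). With the trio as a replicate block its difference from IgG passed, at an adjusted p of 0.0350. With quantile normalization it also passed, at -0.74 (adjusted p = 0.0237). The call of Shank1 against input held in 5 of 14 alternatives, counting fits with 1 library left out. In those fits the log2 fold change was 0.29 to 0.50. Summing its protein-coding transcripts alone turned the difference from IgG to 0.09, as described below for its retained intron.

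Of the Dlg genes, Dlg2 was the one called lower. It stood at 32.2 and 31.6 FPKM in RIP, at 59.0 and 46.6 FPKM in IgG and at 46.6 and 46.6 FPKM in input. On the log2 scale it differed by -0.70 from IgG (SE 0.14, adjusted p = 0.0199) and by -0.51 from input (SE 0.11, adjusted p = 0.0152), with differences of -0.87 to -0.53 and -0.53 to -0.49 and adjusted p of 0.0429 to 0.105 and 0.0521 to 0.104 when 1 library was left out. Dlg4 stood at 72.9 and 76.1 FPKM in RIP, at 108 and 90.5 FPKM in IgG and at 55.8 and 58.2 FPKM in input. Like Shank1 it stood between its controls, with a log2 fold change of -0.40 against IgG (SE 0.12, adjusted p = 0.0586) and 0.40 against input (SE 0.10, adjusted p = 0.0237). Its difference from IgG passed with median-ratio rescaling (-0.50, adjusted p = 0.0386) and with quantile normalization (-0.73, adjusted p = 0.0134). The call of Dlg4 against input held in 7 of 14 alternatives, counting fits with 1 library left out. In those fits the log2 fold change was 0.37 to 0.435. Dlg3 stood at 30.9 and 27.7 FPKM in RIP, at 19.0 and 23.5 FPKM in IgG and at 19.8 and 22.9 FPKM in input. Its log2 fold change was 0.45 against IgG (SE 0.16, adjusted p = 0.0844) and 0.47 against input (SE 0.14, adjusted p = 0.0488). The latter call was lost with the trio as a replicate block (adjusted p = 0.0593) and with length and GC trends removed (0.14, adjusted p = 0.479). It held in 4 of 14 alternatives, counting fits with 1 library left out, where the log2 fold change was 0.37 to 0.57. Dlg1 stood at 15.9 and 17.6 FPKM in RIP, 11.3 and 13.0 FPKM in IgG and 11.1 and 15.7 FPKM in input, and neither difference passed (0.43 and 0.34, adjusted p = 0.106 and 0.234).

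Homer1, the adaptor at the far end of the chain, stood at 12.8 and 13.6 FPKM in RIP, at 20.4 and 21.0 FPKM in IgG and at 23.3 and 30.7 FPKM in input. Both RIP libraries were below both controls. The log2 fold change was -0.61 against IgG (SE 0.14, adjusted p = 0.0292) and -0.94 against input (SE 0.18, adjusted p = 0.0103), with fold changes of -0.65 to -0.57 and -1.14 to -0.75 and adjusted p of 0.0727 to 0.201 and 0.0312 to 0.0962 when 1 library was left out. Dlgap1, the link between the Dlg and Shank layers, stood at 58.7 and 61.3 FPKM in RIP, 57.3 and 58.2 FPKM in IgG and 51.4 and 59.9 FPKM in input. Its differences were 0.05 against IgG (95% interval -0.20 to 0.31) and 0.13 against input (-0.15 to 0.42). Their sign turned with quantile normalization (-0.24 and -0.17), and against IgG also with median-ratio rescaling (-0.04).

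Scaffold transcripts are long and several are rich in G and C, and 1 alternative took out the trends of the fold change with both properties together. The FPKM-weighted mean transcript length of the 9 genes in the IgG comparison ran from 3055 bases for Dlg4 to 7694 bases for Shank2, longer than 64.4% and 97.3% of the genes tested. GC content ran from 43.1% for Homer1 to 61.9% for Shank3. With these trends over all genes removed, 3 of 9 genes were called against IgG and 3 of 9 against input, all 6 of these calls lower in RIP. Of all genes tested, 18.1% and 28% were then called, and 7.56% and 13.4% were called lower. Shank2 then stood at -0.02 against IgG (adjusted p = 0.930) and 0.34 against input (adjusted p = 0.0578). Shank3 stood at 0.29 (adjusted p = 0.202) and 0.03 (adjusted p = 0.884). Neither gene was then called higher than IgG or input. Shank1 was called lower than both controls, at -0.91 (adjusted p = 0.0168) and -0.45 (adjusted p = 0.0199), which turned its sign against input. Dlg4 moved to -0.70 (adjusted p = 0.0160) and -0.08 (adjusted p = 0.614). Dlg2 changed least, at -0.72 (adjusted p = 0.0293) and -0.58 (adjusted p = 0.0122). Homer1 stood at -0.42 (adjusted p = 0.0879) and -0.70 (adjusted p = 0.0260).

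**Figure D3:**
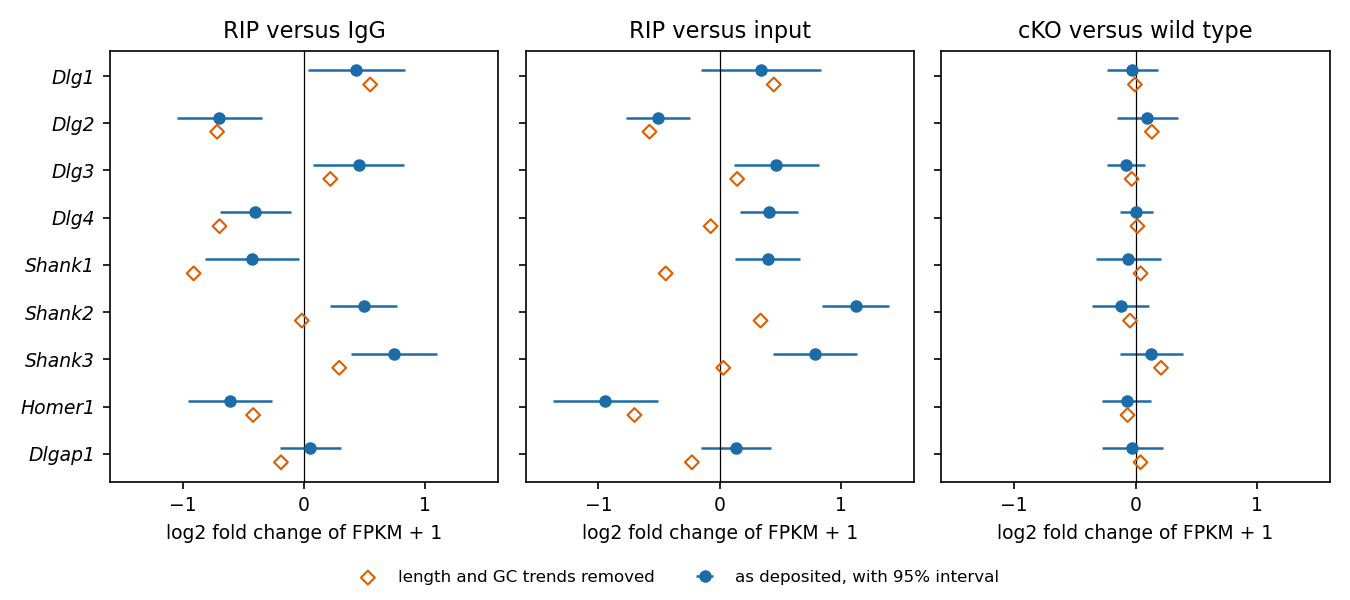
Log2 fold change of FPKM + 1 for each scaffold gene in the 3 comparisons, as filled circles with 95% intervals from limma, and with length and GC trends removed as open diamonds. In the pull-down panels the diamonds of the 3 Shank genes, Dlg3, Dlg4 and Dlgap1 lie left of the circles. Those of Dlg1 and Homer1 lie right of the circles, and those of Dlg2 stay close to them. In the cKO panel all 9 intervals include 0.

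The other 39 genes of the postsynaptic density lay higher in RIP more often than lower. Against IgG 13 of 39 were called higher and 2 lower, with a median log2 fold change of 0.28, where 13.7% and 9.69% of all genes were called. Against input 22 of 39 were called higher and 6 lower, with a median of 0.65, where 19.3% and 16.6% of all genes were called. Leaving out any 1 library, which leaves 1 in its group, lowered the number of calls in both comparisons. Against IgG the median log2 fold change was then 0.27, 0.35 and 0.37 without RIP A, RIP B and IgG A, and is not given for IgG B. Against input it was 0.61, 0.63, 0.54 and 0.57 without RIP A, RIP B, input A and input B. The highest of the called genes were Dlg5, a Dlg relative at cell junctions (1.31 against IgG and 1.57 against input), and the receptor-sorting adaptor Grip2 (1.28 and 1.66). The lowest of the called genes were Lin7c, a small adaptor of the Cask complex (-1.82 and -2.02), with Dynll2, a dynein light chain, second against IgG (-1.09) and Cript, a PDZ ligand of Dlg proteins, second against input (-1.61). With length and GC trends removed the calls fell to 7 higher and 2 lower against IgG, and to 12 higher and 5 lower against input. Of all genes tested, 18.1% and 28% were then called, with 7.56% and 13.4% called lower. Marker lists of cell types also differed with the pull-down, given here as the summed level of each list. Proliferation markers stood at 70.7 to 74.7 FPKM in RIP and 41.3 to 44.7 FPKM in IgG, with 2 of 4 called higher, and at 72.0 to 75.8 and 40.6 to 40.9 FPKM in the table with input, again with 2 of 4 called higher. Striatal neurons were higher in RIP than in IgG (144 to 155 against 99.6 to 125 FPKM) and input (146 to 158 against 93.5 to 94.1 FPKM), with 1 of 9 called in each. So was the oligodendrocyte lineage (76.5 to 79.9 against 61.8 to 66.0 FPKM, and 77.6 to 81.3 against 57.8 to 63.6 FPKM), with 0 of 6 called against IgG, and 3 higher and 1 lower against input. Astrocytes were lower in RIP than in IgG (61.8 to 68.4 against 80.3 to 87.6 FPKM, 1 of 4 called) and input (62.8 to 69.6 against 76.4 to 88.7 FPKM, 2 of 4 called). Microglia were lower as well (14.3 to 14.9 against 18.5 to 25.8 FPKM in IgG, 0 of 6 called, and 14.6 to 15.2 against 21.8 to 24.5 FPKM in input, 1 of 6 called). Against input, but not IgG, RIP was also lower and without overlap for radial glia (216 to 227 against 347 to 378 FPKM, 1 of 6 called lower), red blood cells (19.1 to 39.3 against 67.0 to 77.3 FPKM, 2 of 4 called lower) and endothelium (23.8 to 27.7 against 30.5 to 33.7 FPKM, 1 of 5 called in each direction). Cortical excitatory neurons were higher than input (441 to 466 against 405 to 413 FPKM, 2 of 7 called higher and 1 lower), as were interneurons (264 to 266 against 236 to 256 FPKM, 2 of 7 called higher). In 3 of these cases the median log2 fold change of the list's genes had the other sign than the sum, at -0.17 for striatal neurons against IgG and at 0.15 for radial glia and 0.19 for endothelium against input. The part of these cell types in the scaffold values was not tested.

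Scaffold genes act through alternative transcripts, and the deposited values give an estimate for each. Of the transcripts of the 9 genes, 43, 51 and 51 were tested in the cKO, IgG and input comparisons. With limma 0, 0 and 2 of them were called, and 2, 10 and 13 had an unadjusted p under 0.05, where 0.00374%, 0% and 6.84% of all transcripts tested were called and 5.66%, 22.6% and 28.2% had such a p. The 2 calls against input were Shank1-202, higher in RIP at 3.66 and 5.52 FPKM against values at or near 0, and Dlg3-208, a transcript with no coding sequence, at 0 and 0.01 FPKM in RIP and 4.49 and 3.67 FPKM in input. Each passed the filter of a mean of 1 FPKM only through the group where it was high, so the filter fixed the direction these calls could take, and neither is counted here as support. Estimates of overlapping transcripts are less certain than gene sums, and a value at 0 can be a failed estimate. Transcript numbers follow GENCODE, and all sequences below are from GENCODE vM21 transcripts on GRCm38, plus strand.

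Dlg4 lies at chr11:70016942-70047522 with 13 annotated transcripts. Dlg4-203, with 2172 coding bases, begins with the exon that encodes the N terminus of PSD-95 on which the protein is palmitoylated. The coding sequence of Dlg4-201, 1992 bases, starts downstream of the first 2 coding exons of Dlg4-203. These exons are shown here because, of the 2 forms, they are coding in Dlg4-203 alone, with the start codon in capitals.
Dlg4-203 first coding exon, chr11:70018920-70018949: ATGgactgtctctgtatagtgacaaccaag
Dlg4-203 second coding exon, chr11:70026923-70026988: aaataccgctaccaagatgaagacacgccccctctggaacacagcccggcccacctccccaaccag
In frontal cortex Dlg4-201 held the larger part, 60.2, 62.1, 60.4 and 53.3 FPKM in wild type and 53.5, 63.3, 59.6 and 62.4 FPKM in cKO. Dlg4-203 stood at 30.0, 32.4, 31.4 and 38.2 FPKM in the wild type and 28.8, 33.2, 33.2 and 36.8 FPKM in the cKO libraries. The order was the reverse in the total RNA of the pull-down set. There Dlg4-203 held 67.1% to 78.2% of Dlg4 FPKM in each of the 6 libraries, at 49.7 and 51.1 FPKM in RIP, 78.4 and 65.4 FPKM in IgG and 40.0 and 45.5 FPKM in input. Dlg4-201 stood at 12.7 and 10.2 FPKM in RIP, 15.7 and 10.9 FPKM in IgG and 7.81 and 0.10 FPKM in input. The 2 sets differ in library kit, RNA selection and dissected area, which cannot be told apart.

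Dlg4-205 lacks 1 coding exon, the 18th of the 20 exons of Dlg4-203, and is annotated as a target of nonsense-mediated decay. Splicing of this exon is known to be held back by PTBP proteins in cells that are not yet mature neurons. The exon has 110 bases, which is not a multiple of 3, so that skipping it shifts the reading frame.
Dlg4 exon skipped in Dlg4-205, chr11:70043658-70043767: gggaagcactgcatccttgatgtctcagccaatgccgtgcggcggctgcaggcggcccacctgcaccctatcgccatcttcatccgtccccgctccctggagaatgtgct
Dlg4-205 took 8.86, 9.19, 9.98 and 9.17 FPKM in wild type and 11.1, 7.33, 8.62 and 6.54 FPKM in cKO, 8.08% to 9.16% and 5.69% to 11.2% of Dlg4 FPKM. The cKO values spread around the wild type values, with cKO 1 the highest. In the pull-down set it stood at 2.86 and 8.60 FPKM in RIP, 4.09 and 3.70 FPKM in IgG and 6.74 and 3.68 FPKM in input, with overlapping groups.

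Shank3 lies at chr15:89499623-89560261 with 7 annotated transcripts. The 2 full-length forms, Shank3-203 and Shank3-201, have 5415 and 5190 coding bases. The 225 additional bases of Shank3-203 lie at its 5′ end. Shank3-201 is annotated to begin where they end and is otherwise the same sequence, 7131 bases of 7365, so reads from this 5′ end alone tell the 2 forms apart. They are shown for that reason, with the start codon in capitals.
Shank3-203 coding start, chr15:89499632-89499856: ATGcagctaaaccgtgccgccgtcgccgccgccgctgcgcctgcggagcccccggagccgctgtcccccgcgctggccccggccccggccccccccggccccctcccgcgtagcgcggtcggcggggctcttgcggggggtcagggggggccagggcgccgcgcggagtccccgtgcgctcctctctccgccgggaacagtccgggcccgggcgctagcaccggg
In frontal cortex the shorter coding form dominated. Shank3-201 stood at 5.26, 7.59, 9.17 and 8.98 FPKM in the wild type and 8.07, 10.6, 9.34 and 10.4 FPKM in the cKO libraries, and Shank3-203 stayed at or under 1.92 FPKM in all 8 libraries. In RIP the longer form dominated. It also exceeded Shank3-201 in IgG B and input B, but not in IgG A and input A. Shank3-203 stood at 30.0 and 30.1 FPKM in RIP, at 8.35 and 10.9 FPKM in IgG and at 3.63 and 15.3 FPKM in input. The 2 RIP libraries were nearly equal and above all 4 controls. The log2 fold change was 1.56 against IgG (SE 0.18, adjusted p = 0.0562) and 1.86 against input (SE 0.66, adjusted p = 0.175), so neither passed. Shank3-201 stood at 3.83 and 0.28 FPKM in RIP, 9.13 and 5.55 FPKM in IgG and 13.3 and 3.19 FPKM in input, a log2 fold change of -1.71 against IgG (SE 0.76, adjusted p = 0.286). A short 3rd form, Shank3-207, with 407 coding bases, stood at 17.5 and 11.2 FPKM in RIP, 7.94 and 8.67 FPKM in IgG and 6.66 and 10.2 FPKM in input. A gene on the opposite strand, Gm15609, overlaps Shank3 exons, and the strand setting of the counting is one of the steps not given in the sources used here.

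Shank1 lies at chr7:44310253-44360572 with 6 annotated transcripts. One of them, Shank1-204, is 784 bases long, has no coding sequence and begins with 186 bases of an intron of the full-length Shank1-203 before running into its next exon. Its first bases are shown because much of the difference between IgG and RIP lies on this transcript; the AG that ends the intron is not spliced out and is in capitals.
Shank1-204 start, chr7:44350762-44350977: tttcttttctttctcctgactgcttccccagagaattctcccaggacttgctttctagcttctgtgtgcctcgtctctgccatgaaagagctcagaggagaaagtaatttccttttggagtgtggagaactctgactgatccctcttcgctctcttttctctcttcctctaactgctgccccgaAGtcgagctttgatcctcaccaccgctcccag
In frontal cortex Shank1-204 stood between 0.68 and 2.17 FPKM in all 8 libraries, 1.38% to 4.11% of Shank1 FPKM. In the total RNA libraries it stood at 18.4 and 18.7 FPKM in RIP, 73.0 and 41.1 FPKM in IgG and 14.2 and 28.8 FPKM in input. In IgG it held 47.9% and 36.1% of Shank1 FPKM, in RIP 17.6% and 20.5%, and in input 19.3% and 37.3%. The log2 fold change was -1.51 against IgG (SE 0.30, adjusted p = 0.0989). The full-length Shank1-203 stood at 46.1 and 39.2 FPKM in RIP, 53.4 and 51.4 FPKM in IgG and 27.6 and 30.0 FPKM in input. Shank1-201, with 6474 coding bases, stood at 24.7 and 19.1 FPKM in RIP and 10.91 and 14.03 FPKM in IgG, a log2 change of 0.76 (SE 0.21, adjusted p = 0.156). The transcripts of Shank1 thus lay on different sides of IgG, and none of these differences passed at the transcript level. Another gene, 1700008O03Rik, overlaps Shank1 exons on the opposite strand.

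Homer1 lies at chr13:93299635-93405129 with 12 annotated transcripts. The long forms carry a coiled coil that joins Homer proteins into chains. The short form Homer1a, here Homer1-204 with 558 coding bases, is induced by neuronal activity, ends early by reading on past a splice site and uncouples these chains. Its coding end is shown, with the bases past the exon shared with the long Homer1-202 in capitals, stop codon included.
Homer1-204 coding end, chr13:93356050-93356113: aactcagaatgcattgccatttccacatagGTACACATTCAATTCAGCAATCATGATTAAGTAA
Homer1-204 stood at 3.75, 5.06, 3.27 and 3.85 FPKM in the wild type and 2.39, 3.21, 4.06 and 3.23 FPKM in the cKO libraries, 11.1% to 17.3% and 10.3% to 12.7% of Homer1 FPKM. The groups overlapped. The long forms, 3 transcripts in sum, stood at 18.4 to 21.7 FPKM in wild type and 17.3 to 24.0 FPKM in cKO. In the pull-down set the long forms stood at 6.22 and 7.01 FPKM in RIP, 8.03 and 9.02 FPKM in IgG and 11.9 and 10.8 FPKM in input. Homer1-204 stood at 2.08 and 2.34 FPKM in RIP, 2.32 and 4.52 FPKM in IgG and 4.87 and 5.40 FPKM in input. The long forms were lower in RIP than in every control library, while Homer1-204 in RIP overlapped IgG and was below both input libraries. The remaining Homer1 forms in sum were also lower in RIP than in every control library. They stood at 4.5 and 4.2 FPKM in RIP, 10.0 and 7.5 FPKM in IgG and 6.5 and 14.5 FPKM in input. Among them, Homer1-207, with 579 coding bases, stood at 2.3 and 1.4 FPKM in RIP. In IgG it stood at 5.4 and 3.6 FPKM, and in input at 5.3 and 6.9 FPKM. Homer1-204 held 16.2% and 17.2% of Homer1 FPKM in RIP, 11.4% and 21.5% in IgG and 20.9% and 17.6% in input.

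**Figure D4:**
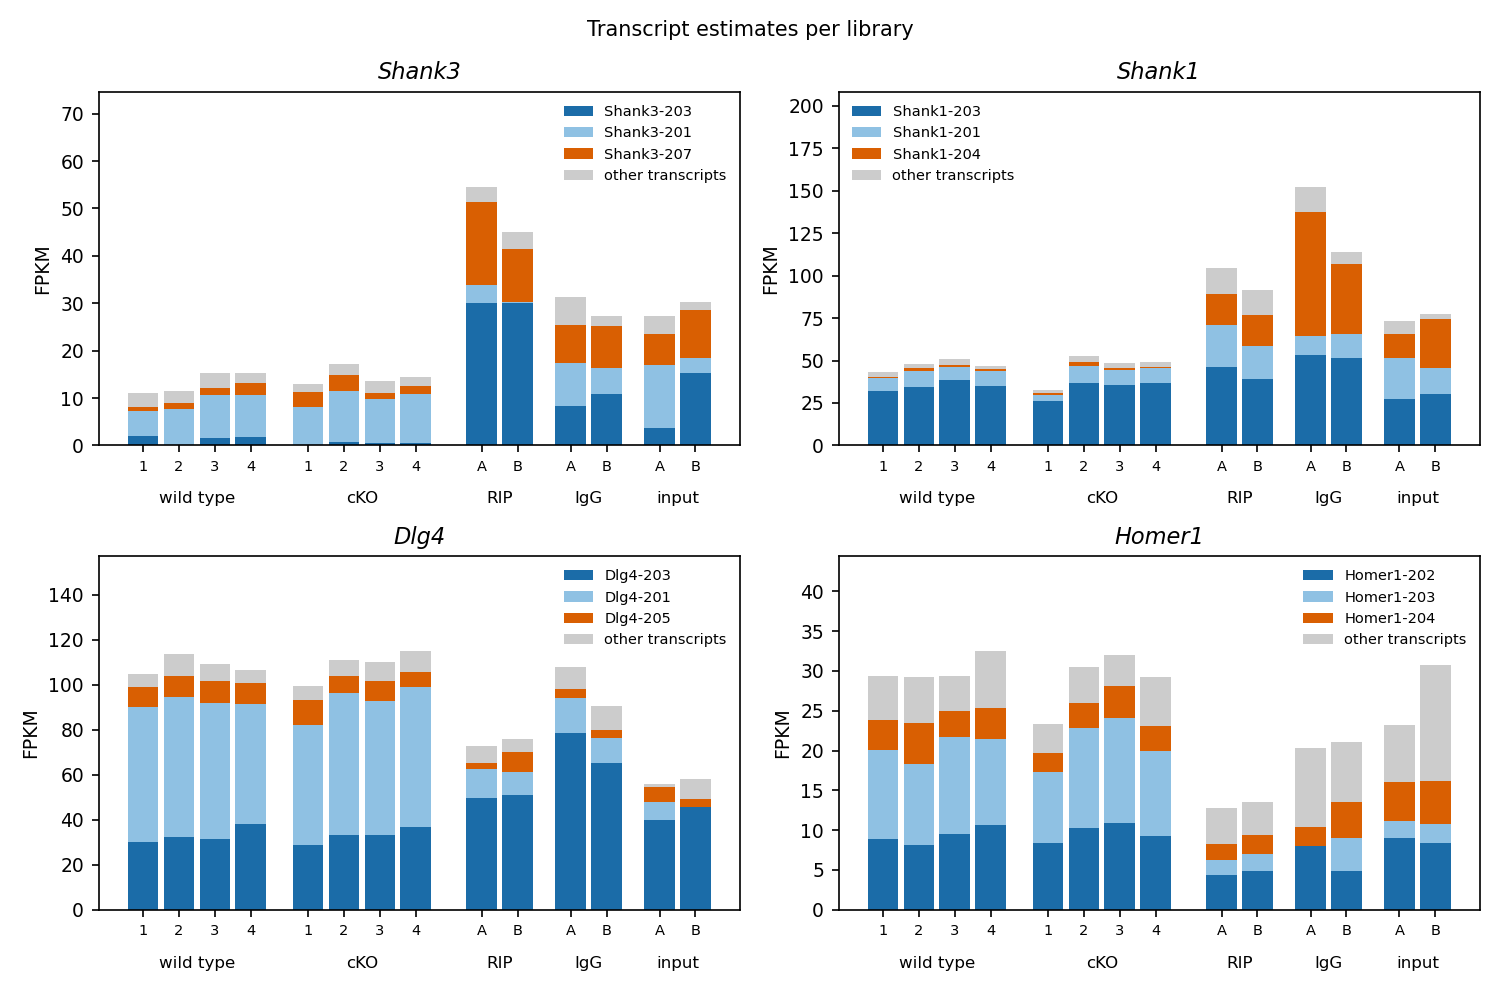
Stacked FPKM estimates of the transcripts of Shank3, Shank1, Dlg4 and Homer1 in each library, with frontal cortex (wild type and cKO 1 to 4) on the left and the pull-down set (A and B) on the right; RIP and IgG come from 1 table and input from the other. Shank3-203 is the tallest segment in both RIP libraries, IgG B and input B, and small in frontal cortex. Shank1-204 reaches its highest values in the 2 IgG libraries, and Dlg4-203 and Dlg4-201 change places between the 2 sets.

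The remaining genes differed in how their level was spread over transcripts. Dlg2, at chr7:90476672-92449247, was led by Dlg2-204, at 52.3 to 64.9 FPKM in wild type and 49.2 to 65.8 FPKM in cKO. In the pull-down set Dlg2-204 stood at 17.9 and 20.6 FPKM in RIP, 33.8 and 32.6 FPKM in IgG and 32.0 and 35.4 FPKM in input. Its log2 fold change was -0.75 against both controls (SE 0.13 and 0.14, adjusted p = 0.0789 and 0.0588), short of the threshold among transcripts. Dlg2-208, which has no coding sequence, was also lower, at 1.205 and 0.00 (0.00147) FPKM in RIP, 12.9 and 4.73 FPKM in IgG and 5.77 and 2.10 FPKM in input, a log2 fold change of -2.58 against IgG (SE 0.67, adjusted p = 0.139). Dlg2-208 passed the filter of a mean of 1 FPKM only through the controls, where it was high. The filter thus fixed the direction its difference could take, and Dlg2-208 is not counted here as support. Shank2, at chr7:144001928-144424494, was led by Shank2-202, at 48.6 and 33.6 FPKM in RIP and 28.3 and 24.9 FPKM in IgG, and by Shank2-205, at 21.7 and 25.6 FPKM and 22.1 and 21.6 FPKM. Input A was led by Shank2-202 and input B by Shank2-205, at 18.4 FPKM or 57.3% of Shank2. Dlg3, on chromosome X at 100767722 to 100818410, was led in most libraries by Dlg3-201, at 17.8 and 19.7 FPKM in RIP and 17.0 and 6.99 FPKM in IgG. The exceptions were IgG B, led by Dlg3-206 at 8.31 FPKM, cKO 1, led by Dlg3-208 at 10.4 FPKM, and cKO 4, led by Dlg3-202 at 9.98 FPKM. Dlg1, at chr16:31663443-31875129, was spread over many forms, of which Dlg1-206 stood at 4.50 and 4.53 FPKM in RIP and 4.83 and 5.55 FPKM in IgG.

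Dlgap1, at chr17:69969073-70821413, differed between the 2 sets in kind of transcript. Protein-coding transcripts held 85.4% to 98.0% of its FPKM in the 8 frontal cortex libraries and 34.8% to 54.9% in the 6 pull-down libraries. The largest of the others, Dlgap1-204, is annotated as a retained intron. It stood at 17.9 and 20.2 FPKM in RIP, 14.8 and 8.41 FPKM in IgG and 16.2 and 21.8 FPKM in input, and at or under 0.44 FPKM in frontal cortex. The leading coding transcript, Dlgap1-207, stood at 18.8 and 18.5 FPKM in RIP, 20.6 and 22.1 FPKM in IgG and 20.6 and 11.0 FPKM in input. The gene AC079441.1 overlaps Dlgap1 exons on the opposite strand, and Gm45131 and Gm45159 overlap Dlg2 exons on the same strand, so reads from these genes and the scaffold genes may have been shared.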

How the data were processed

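RNA-seq values were deposited by the authors as FPKM per transcript in 3 tables, for frontal cortex, RIP with IgG and RIP with input. The submitters' processing notes name STAR 2.5, SAMtools and Cuffdiff 2.2.1 with GRCm38.p4 (mm10), and the identifiers per the file headers are GENCODE vM14. Filters, strand settings and library scaling: not given in the sources used here. Of 128508 transcripts per table, 127975 matched vM21 by identifier and were summed per symbol. The RIP columns differed between their 2 tables by factors of 1.018 and 1.015, so tests stay within a table. Library cKO 4 was matched by library number, because its short name in the labels differs.

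Log2(FPKM + 1) was tested over all genes, or all transcripts, with a mean of at least 1 FPKM, with limma 3.58.1 in R 4.3.3 (trend and robust, two-sided, Benjamini-Hochberg at 0.05), which understates fold changes of low genes. The fits were tested on simulated data. Alternatives changed the pseudocount, filter, scaling, fit settings, transcript types, length and GC trends, the block, the Xist state and the libraries used. The Xist state, Xist above 100 FPKM or not, was a covariate in frontal cortex, and its spread over the groups is not given here. With it the log2 fold change went from 0.095 to 0.165 for Dlg2, from -0.080 to -0.105 for X-linked Dlg3 and from 0.130 to 0.188 for Shank3, none called. Python 3.11.15 drew tables and figures. FPKM carry no depth, so no counting error could be given. Every scaffold gene is named, with its leading transcripts and others of at least 1 FPKM where the results turn on them, and the 2 highest and 2 lowest called genes of the postsynaptic list. The genes and lists were chosen with earlier results of these data known. The series design calls the pull-down libraries matched trios; deviations of same-lettered libraries correlated at 0.0088 (RIP and IgG) and 0.012 (RIP and input).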

Additional observations from a re-analysis of the deposited data

Results flagged for a closer look

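Of 18 groups of 4 frontal cortex libraries, 4 held a library far from its group, by a gap over range above Dixon's critical value at 95%. Chance alone flags about 1 group in 20. The 18 groups come from the same libraries and are not independent, so no excess over chance can be read from this. Dlg2 in cKO 1 stood at 73.9 FPKM, with the other cKO libraries at 106 to 111 FPKM. Shank2 in cKO 1 stood at 17.8 FPKM, with the others at 25.0 to 25.5 FPKM. Dlg3 in cKO 2 stood at 28.7 FPKM, above 24.6 to 25.2 FPKM in the others. Homer1 in wild type 4 stood at 32.5 FPKM, above 29.3 to 29.4 FPKM in the others.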

How the results depend on the processing

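In frontal cortex 0 scaffold genes and 0 of their transcripts were called under each of the alternatives run. All genes called numbered 3, and 1 without the filter, without trend and robust settings, with the Xist state as a covariate or without cKO 1 and 4 together, 0 without wild type 1 and 2 together, and 1 to 3 when 1 library was left out. Values of scaffold genes turned sign, none past the threshold: Dlg4 to -0.029 with quantile normalization, Shank1 to 0.041 and Dlgap1 to 0.040 with length and GC trends removed, and Dlgap1 to 0.024 with Xist. Without cKO 1 and 4 Dlg1 stood at 0.028, Shank1 at 0.10, Homer1 at 0.051 and Dlgap1 at 0.13, and without wild type 1 and 2 Dlg2 stood at -0.0043 and Shank3 at -0.072. Leaving out 1 library gave Dlg1 -0.098 to 0.014, Dlg4 -0.022 to 0.048, Dlgap1 -0.092 to 0.11, Homer1 -0.13 to 0.021 and Shank1 -0.13 to 0.090.

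Against IgG 4 scaffold genes were called, 2 without the filter, 0 without trend and robust settings, and 0 to 1 with 1 library left out; all genes called fell from 3406 to 1876 without trend and robust settings and to 0 to 1806 with 1 library left out, 0 of them without IgG A. With a filter at 5 FPKM 3 scaffold transcripts were called against IgG, not 0. The share of all transcripts called under that filter is not given here, so this count is not read as a trait of the scaffold genes. Dlgap1 turned to -0.043, -0.24 and -0.19 with median-ratio rescaling, quantile normalization and length and GC removed, Shank2 to -0.018 with length and GC removed, and Shank1 to 0.085 with protein-coding transcripts only. All genes higher and lower numbered 1994 and 1412, and 1575 and 1655 with median-ratio rescaling.

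Against input 7 scaffold genes were called, 4 with quantile normalization, 3 without trend and robust settings, 3 with length and GC removed, and 1 to 3 with 1 library left out; all genes called went from 5188 to 1395 to 3471 in the last case. The 2 scaffold transcripts called were 0 with a pseudocount of 0.1 or 5, with the replicate block and with any library left out. Dlgap1 turned to -0.17 with quantile normalization, and length and GC removal turned Dlg4 to -0.076, Shank1 to -0.45 and Dlgap1 to -0.23. The causes were not tested. With the replicate block, 5 scaffold genes were called against IgG and 6 against input, through Shank1 and Dlg3 alone; in frontal cortex, where the numbers name different animals, it left 0 called. Counts over the list of 39 genes were added after the data were seen.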
